A study of Mus musculus with 10 samples.

Results

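Matrix metalloproteinases (MMPs), their tissue inhibitors (TIMPs) and the meprins were followed as a group of 10 genes in the renal cortex of mice after kidney ablation and uninephrectomy. The genes were picked by symbol, with earlier results of these data known, and the group held 5 metalloproteinase genes (Mmp2, Mmp3, Mmp7, Mmp9 and Mmp14), 3 inhibitor genes (Timp1, Timp2 and Timp3) and 2 meprin genes (Mep1a and Mep1b), out of 18193 genes that could be named on the array. All 10 were on the array, with 23 probe sets in all. Each gene was read from its probe set of highest mean, and 9 of the 10 passed a filter that asked for a mean log2 value of at least 5.53, the median of all probe sets. Mmp3 did not pass.

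Gene expression was measured with 1 Affymetrix array per mouse in 5 mice given aliskiren at 50 mg/kg per day and 5 mice given losartan at 500 mg/l. Aliskiren inhibits renin, the enzyme that starts angiotensin production, and losartan blocks the type 1 angiotensin II receptor. All were FVB/N mice of 20 weeks that had undergone partial kidney ablation and a later uninephrectomy, and either drug was given for 6 weeks, starting 6 weeks after the first operation and 4 weeks after the second. The sex of the mice was not given in the sources used here and untreated mice were not analysed here, so the values compare the drugs with each other and not with an untreated kidney. The labels number the mice within each drug and say nothing further of how they were kept or processed, so the p-values measure the spread between these samples. All levels are log2 values as the authors deposited them, a difference of 1 being a doubling, and every difference is aliskiren minus losartan.

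MMPs are zinc proteases that cleave collagens, basement membrane and cell surface proteins, and TIMPs bind and block their active site. In the kidney most MMPs and TIMPs come from stromal, vascular and inflammatory cells or from injured tubules. Meprins are zinc proteases of another family, the astacins, and are among the abundant enzymes of the proximal tubule brush border, where meprin beta is anchored in the membrane and meprin alpha is secreted or held there by meprin beta.

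A single animal stood apart and is named first, since it decided several values. Of the 11486 genes that passed the filter, losartan mouse 3 had the highest value of all 10 mice for 29.2% and the lowest for 24.9%. Its mean over 3 fat markers past the filter, of 7 on the array, was 12.21, against 6.5 to 6.64 in the other losartan mice and 6.40 to 9.76 in the aliskiren mice. Adipoq, a fat cell gene below the level filter, was at 12.96 there, at 9.90 in aliskiren mouse 3, at 7.35 in aliskiren mouse 2 and at 3.17 to 3.96 in the other mice. Of the 3 markers past the filter, Fabp4 and Retn were above it in every mouse and highest in losartan mouse 3, at 13.79 and 10.98. Cidea passed it only through losartan mouse 3 at 11.84, aliskiren mouse 3 at 9.21 and aliskiren mouse 2 at 7.13. In the other mice Cidea was at 3.69 to 4.33, so the mean rests in part on a marker admitted by the high mice. Losartan mouse 3 was also highest for 8 tubular injury markers at a mean of 10.67, with aliskiren mouse 1 next at 9.37. Results that rest on losartan mouse 3 are given with and without it below.

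No member passed the test between the drugs. Of the 9 members tested, 0 passed an adjusted p of 0.05 with limma, where 0% of all genes tested passed, and 2 of 9 had an unadjusted p under 0.05, where 4.72% of all genes did. In 0 of the 10 members did the groups fail to overlap, against 0.914% of all genes tested. The differences went both ways, with 5 members lower and 5 higher with aliskiren, and 53.8% of all tested genes were lower. Without losartan mouse 3 only 1 member, Mmp3, was lower and 9 were higher, where 50.6% of all tested genes were lower, and 1 of 9 members, Timp3, had an unadjusted limma p under 0.05, where 4.55% of all genes did.

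**Figure D1:**
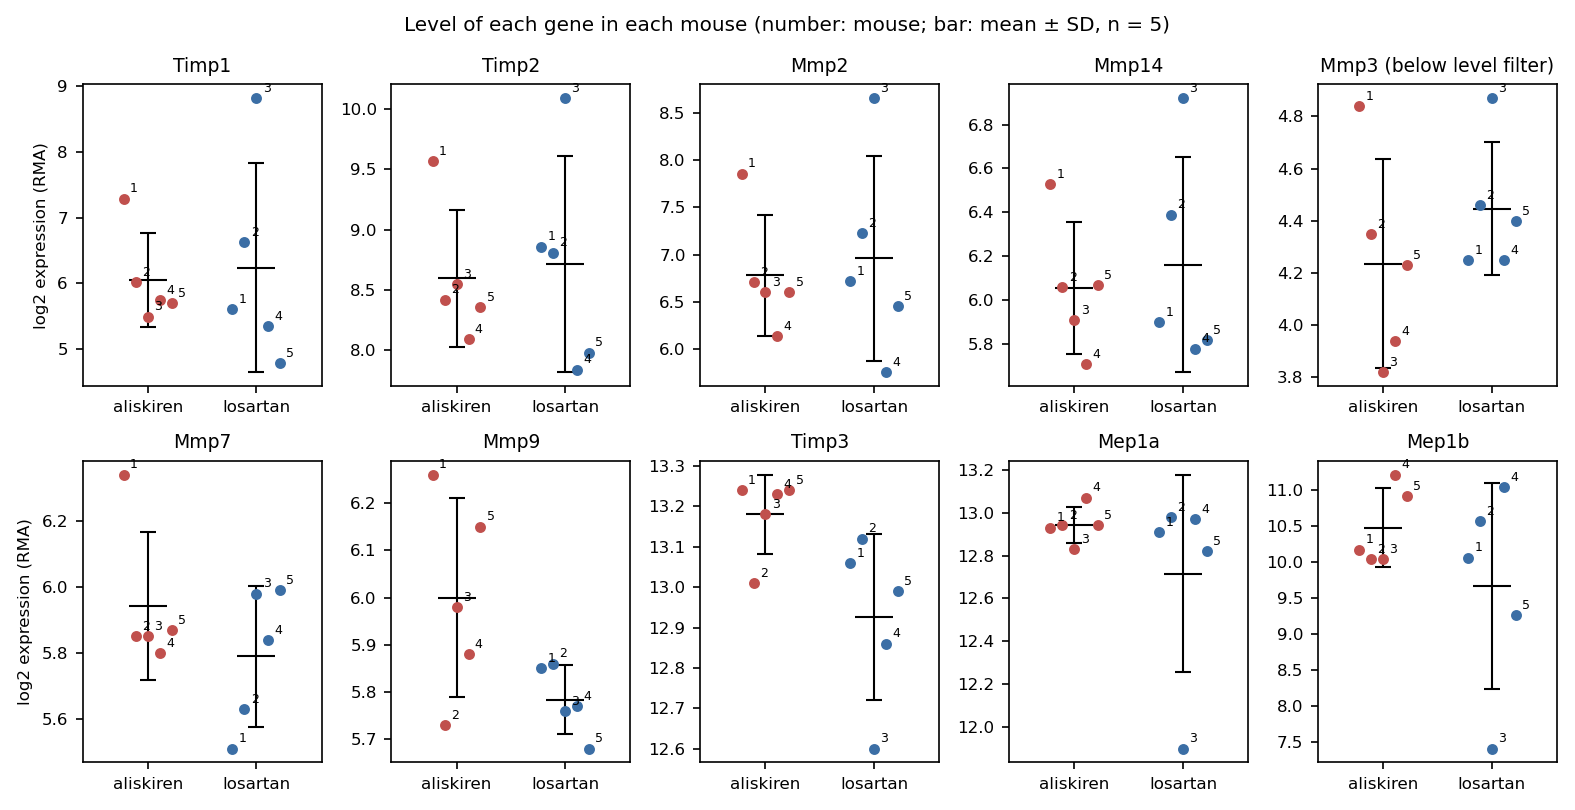
Log2 expression (vertical axis, RMA values) of each of the 10 genes in each mouse, with aliskiren on the left and losartan on the right of each panel; points are mice labelled by number and bars give the mean ± SD of 5 mice. Losartan mouse 3 is the highest point for Timp1, Timp2, Mmp2, Mmp14 and Mmp3 and the lowest for Timp3, Mep1a and Mep1b, and the groups overlap in every panel.

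Among the proteases, Mmp2 encodes gelatinase A, which cleaves type IV collagen and gelatin. Mmp2 was at 7.86, 6.71, 6.60, 6.13 and 6.60 in aliskiren mice 1 to 5, against 6.72, 7.23, 8.66, 5.75 and 6.45 in losartan mice 1 to 5. The highest animals were losartan mouse 3 and aliskiren mouse 1, and the other mice of both groups were intermixed. The difference was -0.18 (SE 0.50, 95% interval -1.28 to 0.93, limma adjusted p = 0.989), and 0.25 (SE 0.36) without losartan mouse 3.

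Mmp14 encodes the membrane-type protease that activates the Mmp2 product at the cell surface in a complex with TIMP2. Mmp14 was at 6.53, 6.06, 5.91, 5.71 and 6.07 in the aliskiren mice, against 5.90, 6.39, 6.92, 5.78 and 5.82 in the losartan mice. The top of the order was as for Mmp2, with losartan mouse 3 first, then aliskiren mouse 1 and losartan mouse 2. The lowest was aliskiren mouse 4, where for Mmp2 it was losartan mouse 4. The difference was -0.11 (SE 0.23, limma adjusted p = 0.982), and 0.08 without losartan mouse 3. A second Mmp14 probe set followed the first across the mice (r = 0.97) with a wider spread, 0.76 against 0.39 (SD over 10 mice), and the dimmest of the 3 did not follow it as closely (r = 0.22).

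Mmp9 and Mmp7 stood close to the level filter. Their SD over the 10 mice, 0.19 and 0.22, was above the median of all tested genes, 0.15. Mmp9, gelatinase B, which neutrophils and macrophages release, was at 6.26, 5.73, 5.98, 5.88 and 6.15 in the aliskiren mice, against 5.85, 5.86, 5.76, 5.77 and 5.68 in the losartan mice. The losartan mice lay within a narrow band and 4 of the 5 aliskiren mice lay above all of them. The difference of 0.22 (SE 0.10) had an unadjusted limma p of 0.0486, an exact permutation p of 0.0873 and an adjusted p of 0.945, and it did not pass. A second Mmp9 probe set, with a mean of 3.85 over all mice, differed by -0.05 and did not follow the first across the mice (r = -0.11), so the array gave no single account of Mmp9. None of the 8 neutrophil markers on the array passed the level filter.

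Mmp7, matrilysin, a protease known to be induced in injured tubular epithelium, was at 6.34, 5.85, 5.85, 5.80 and 5.87 in the aliskiren mice, against 5.51, 5.63, 5.98, 5.84 and 5.99 in the losartan mice. Aliskiren mouse 1 stood above all others, and the remaining values overlapped. The difference was 0.15 (SE 0.13, limma adjusted p = 0.949), and 0.05 without aliskiren mouse 1. Mmp3, stromelysin 1, was low in every mouse, at 3.82 to 4.84 with aliskiren and 4.25 to 4.87 with losartan, and a fit without the level filter gave -0.21 (SE 0.19). That value moved with single mice, at -0.36 without aliskiren mouse 1 (SE 0.15), -0.14 without aliskiren mouse 4, and -0.11 without aliskiren mouse 3 or without losartan mouse 3.

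Among the inhibitors, Timp1 and Timp2 were highest in losartan mouse 3, where Timp3 was lowest, and all 3 were at or near the top of the aliskiren group in aliskiren mouse 1. Timp1, a secreted inhibitor strongly inducible in damaged and fibrotic tissue, was at 7.29, 6.02, 5.49, 5.74 and 5.69 in the aliskiren mice, against 5.60, 6.63, 8.82, 5.34 and 4.78 in the losartan mice. The losartan group held both the highest and the lowest animal, which lay 16.4-fold apart. The lowest value, 4.78, and those of losartan mouse 4 and aliskiren mouse 3 were below 5.53, the level the filter asked of the mean. The difference was -0.19 (SE 0.69, 95% interval -1.71 to 1.34, limma adjusted p = 0.994), and it turned to 0.46 (SE 0.42) without losartan mouse 3 and to 0.15 (SE 0.33) without aliskiren mouse 1 as well. The SD of Timp1 over the 10 mice, 1.17, was above that of 99.6% of the genes tested, while only 0.714% of its variance lay between the drugs.

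Timp2, which inhibits MMPs and also takes part in the activation of the Mmp2 product, was at 9.57, 8.42, 8.55, 8.09 and 8.36 in the aliskiren mice, against 8.86, 8.81, 10.09, 7.84 and 7.98 in the losartan mice. Aliskiren mouse 1 and losartan mouse 3 were again the highest of their groups. The difference was -0.12 (SE 0.42, limma adjusted p = 0.992), and 0.22 without losartan mouse 3. Of its 6 probe sets, the 3 brightest followed each other across the mice (r of 0.96 and 0.98 with the brightest), and the 3 dimmer ones did so less or not at all (r of 0.51, -0.11 and -0.68).

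Timp3, the inhibitor that binds to the matrix and also blocks ADAM17, was at 13.24, 13.01, 13.18, 13.23 and 13.24 in the aliskiren mice, against 13.06, 13.12, 12.60, 12.86 and 12.99 in the losartan mice. Of the aliskiren mice 4 lay above every losartan mouse, and aliskiren mouse 2 lay among them. Its difference of 0.25 (SE 0.10, 95% interval 0.03 to 0.47), or 1.19-fold, had the smallest p of the 10 genes, at an unadjusted limma p of 0.0272 and an exact permutation p of 0.0238, and it did not pass over all genes (adjusted p = 0.945). All 4 Timp3 probe sets were higher with aliskiren, by 0.19 to 0.26. Without losartan mouse 3, the lowest of all, the difference was 0.17 (SE 0.07).

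The meprins differed most in a single animal. Mep1a, encoding meprin alpha, was at 12.93, 12.94, 12.83, 13.07 and 12.94 in the aliskiren mice, against 12.91, 12.98, 11.90, 12.97 and 12.82 in the losartan mice. Apart from losartan mouse 3 all mice lay within 0.25 of each other. The difference of 0.22 (SE 0.19, limma adjusted p = 0.949) became 0.02 (SE 0.06, 95% interval -0.12 to 0.16) without that mouse.

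Mep1b, encoding meprin beta, spread more widely, at 10.17, 10.04, 10.04, 11.21 and 10.91 in the aliskiren mice, against 10.06, 10.57, 7.41, 11.04 and 9.26 in the losartan mice. Losartan mouse 3 was lowest and losartan mouse 5 next, while the other mice of both groups overlapped. The difference was 0.80 (SE 0.60, 95% interval -0.53 to 2.13), the largest in size among the 10 genes, and did not pass (limma adjusted p = 0.948). It was 0.24 (SE 0.37) without losartan mouse 3. Its SD over the 10 mice, 1.1, was above that of 99.5% of the genes tested.

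**Figure D2:**
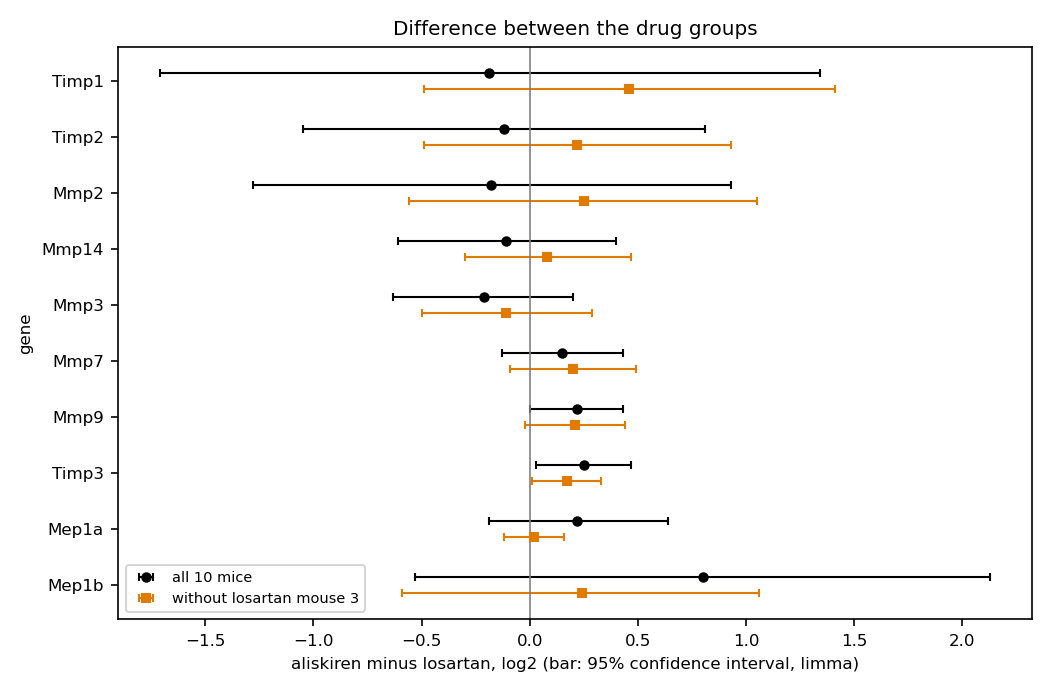
Difference of each gene between the drug groups, aliskiren minus losartan in log2 units (horizontal axis), with 95% confidence intervals from limma; circles use all 10 mice and squares leave out losartan mouse 3. Timp1, Timp2, Mmp2 and Mmp14 lie below 0 with all mice and above 0 without that mouse, and Mep1b is at 0.24 without it, against 0.80 with all mice.

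The intervals show which sizes of difference the data leave possible. For 3 of the 9 tested members, Mmp7, Mmp9 and Timp3, the 95% interval lay within 1.5-fold in both directions, against 87.7% of all genes tested. For Timp1 it reached from 0.305-fold to 2.52-fold and for Mep1b from 0.693-fold to 4.39-fold, so differences up to these sizes were not excluded with 5 mice per group. The SD over the 10 mice was above the median of all tested genes, 0.15, for all 9 tested members.

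Across the mice, Timp1 varied together with the tubular injury marker Havcr1, which encodes KIM-1, and with Mmp14, Mmp2 and Timp2. These relations belong to a family of 12 over 10 mice, with two-sided permutation p-values adjusted over the 12. The share of all tested genes as closely correlated with Timp1 is not given here. Genes outside the group, such as Sdc1, Kctd10 and Rgs10, reached r = 0.99 with Timp1, so values of this size are not particular to the genes named. Havcr1 and Timp1 were correlated at r = 0.93 (permutation p = 2e-05, adjusted 0.00024) and rho = 0.95 (permutation p = 8e-05, adjusted 0.00096). Without the 2 mice farthest from the median of Havcr1, losartan mice 3 and 5, r was 0.88 (exact permutation p = 0.000521, adjusted 0.00625), and after centring on each drug it was 0.94. No other relation of the 12 passed without the 2 mice farthest from the median of its first gene. These removals were not alike. The relations of Timp1 with other members lost losartan mouse 3 and aliskiren mouse 1, both high for Timp1. Havcr1 with Timp1 kept aliskiren mouse 1, the second highest for both genes.

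For Timp1 with Mmp14 r was 0.95 (permutation p = 0.00032, adjusted 0.00128) and rho was 0.77 (permutation p = 0.0122, adjusted 0.0365). Without losartan mouse 3 and aliskiren mouse 1 this r was 0.79 and did not pass (exact permutation p = 0.0273, adjusted 0.109). For Timp1 with Mmp2 r was 0.93 (permutation p = 0.00066, adjusted 0.00158) with a rho of 0.78 (permutation p = 0.0106, adjusted 0.0365), and for Timp1 with Timp2 r was 0.92 (permutation p = 0.00054, adjusted 0.00158) with a rho of 0.75 (permutation p = 0.017, adjusted 0.0407). Both held without losartan mouse 3 alone, each at r = 0.83 (exact permutation, adjusted 0.0187 and 0.0178), and neither held without aliskiren mouse 1 as well, at 0.62 and 0.63. Timp1 with Mmp3 had r = 0.75 (permutation p = 0.0125, adjusted 0.0251) and a rho of 0.58 that did not pass (permutation p = 0.0889, adjusted 0.178). Its r was 0.61 without losartan mouse 3, which did not pass (exact permutation, adjusted 0.144), and 0.18 without both mice.

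The relations of Timp1 with Timp3, Mmp7 and Mmp9 did not pass. With Timp3 r was -0.45 (permutation p = 0.185, adjusted 0.222) and rho 0.18 (permutation p = 0.633, adjusted 0.914), and r was 0.50 without losartan mouse 3. With Mmp7 r was 0.35 (permutation p = 0.298, adjusted 0.325) and rho 0.13 (permutation p = 0.73, adjusted 0.914), and with Mmp9 r was 0.16 (permutation p = 0.671, adjusted 0.671) and rho 0.24 (permutation p = 0.511, adjusted 0.877). The r with Mmp9 was 0.62 without losartan mouse 3 (exact permutation p = 0.0718, adjusted 0.144) and 0.58 with the mean of all probe sets, and it was -0.12 without aliskiren mouse 1 and -0.01 without losartan mouse 5. Without losartan mouse 3 and aliskiren mouse 1 r was 0.34 with Timp3, -0.56 with Mmp7 and 0.23 with Mmp9.

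The meprins moved with each other but not against Timp1 once a single mouse was left out. Mep1a and Mep1b were correlated at r = 0.93 (permutation p = 6e-05, adjusted 0.00036) and rho = 0.89 (permutation p = 0.00148, adjusted 0.00888), and at r = 0.85 without losartan mouse 3 (exact permutation p = 0.00373, adjusted 0.0149). Without aliskiren mouse 4 as well r was 0.80 and did not pass (exact permutation p = 0.0139, adjusted 0.0833). Timp1 had r = -0.74 with Mep1a (permutation p = 0.0845, adjusted 0.113) and -0.62 with Mep1b (permutation p = 0.0781, adjusted 0.113), neither of which passed, and rho was 0.05 and -0.12 (permutation p = 0.893 and 0.762, adjusted 0.974 and 0.914). Without losartan mouse 3 these r turned to 0.35 and 0.19, and without aliskiren mouse 1 as well they were 0.54 and 0.41. Havcr1 with Mep1a had r = -0.58 (permutation p = 0.0849, adjusted 0.113) and rho = 0.01 (permutation p = 1, adjusted 1), and r was 0.32 without losartan mouse 3 and 0.04 without losartan mice 3 and 5.

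**Figure D3:**
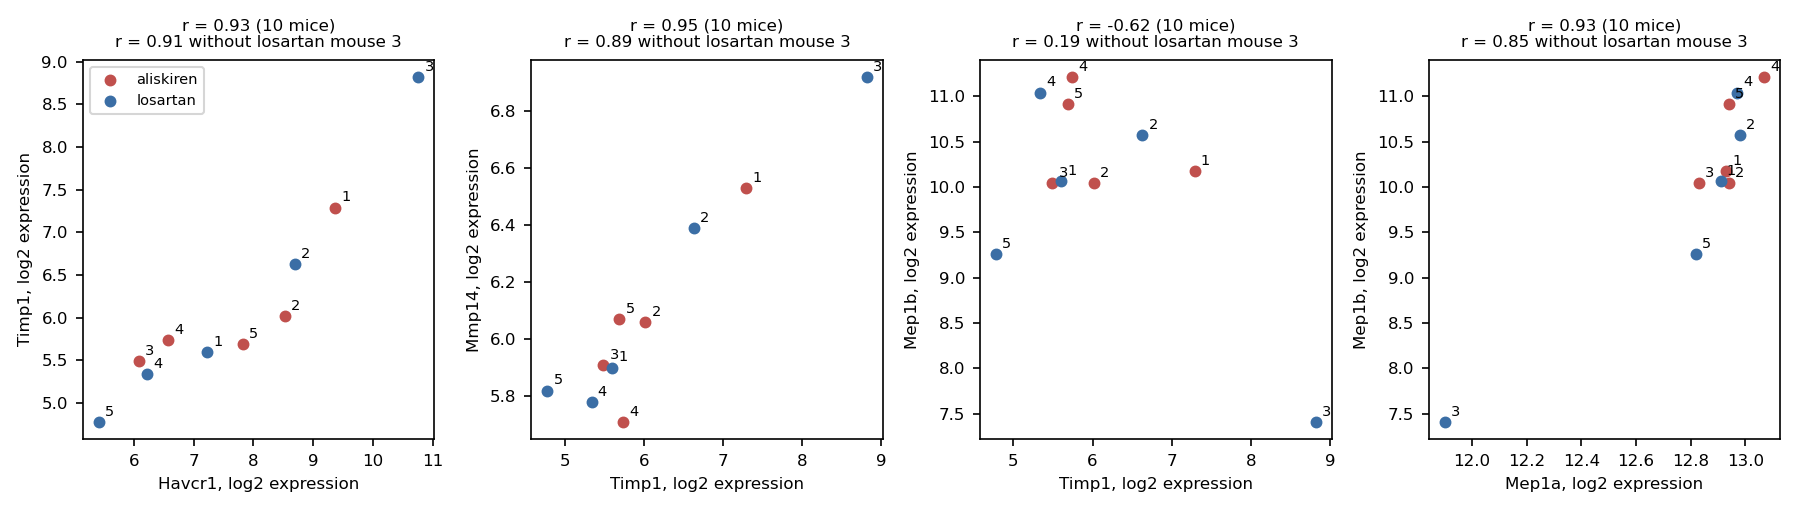
Log2 expression of gene pairs in the 10 mice (points, labelled by mouse number, aliskiren and losartan in different colours); the panels show Havcr1 against Timp1, Timp1 against Mmp14, Timp1 against Mep1b and Mep1a against Mep1b. Without losartan mouse 3, r stays at 0.91, 0.89 and 0.85 for Havcr1 with Timp1, Timp1 with Mmp14 and Mep1a with Mep1b, while Timp1 with Mep1b has r = 0.19, against -0.62 with all mice.

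The animals highest for the injury markers, losartan mouse 3 and aliskiren mouse 1, shared high values of Timp1, Timp2, Mmp2 and Mmp14 but not the meprin values. In losartan mouse 3 Timp1 lay 3.35 above the median of the other losartan mice, Mmp2 2.07, Timp2 1.70 and Mmp14 1.06, while Mep1b lay at -2.91, Mep1a at -1.04 and Timp3 at -0.43 relative to that median. In aliskiren mouse 1 Timp1 lay 1.57 above the median of the other aliskiren mice, Mmp2 1.26, Timp2 1.18 and Mmp14 0.55, but Mep1a lay at -0.01, Timp3 at 0.04 and Mep1b at -0.30. High Timp1, Timp2, Mmp2 and Mmp14 values thus came with low values of both meprins in the first animal. In the second, meprin alpha was at the level of its group. Mep1b was somewhat below it there, and 5.08% of all genes tested lay further below their group in that animal.

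**Figure D4:**
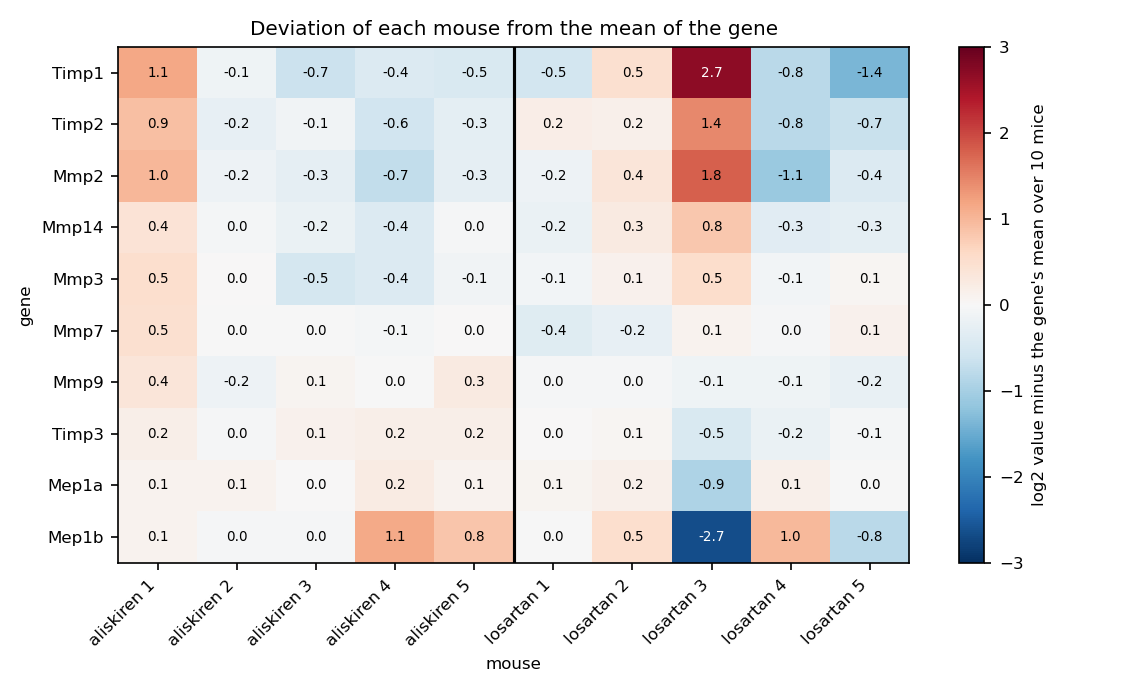
Deviation of each mouse (columns, aliskiren then losartan) from the mean of each gene over the 10 mice (rows), in log2 units; red is above and blue below the mean. Losartan mouse 3 is red for Timp1, Timp2, Mmp2, Mmp14 and Mmp3 and blue for Timp3, Mep1a and Mep1b, whereas aliskiren mouse 1 is red for the same 5 genes and near 0 for the meprins.

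The low meprin values of losartan mouse 3 were set against other enzymes of the brush border and against proximal tubule markers, as a description of 1 animal without a test. Of 9 brush border hydrolases, 7 were below the median of the other losartan mice, with shifts from -1.06 for the aminopeptidase gene Anpep to 0.27 for the dipeptidyl peptidase gene Dpp4 and a median of -0.12. Ace, encoding the angiotensin converting enzyme, was at -1.0 and the trehalase gene Treh at -0.96. Of 10 proximal tubule markers 9 were below, at a median of -0.42, from -2.68 for the straight-segment transporter gene Slc7a13 to 0.23 for the lactate transporter gene Slc5a12. Mep1b was thus lower than all of these, and only 0.0522% of all genes tested lay further below their group in this animal. In bulk cortex fewer cells of a type and less RNA per cell cannot be told apart.

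Means of fibroblast, macrophage and podocyte markers had the same 2 highest mice as Timp1, Timp2, Mmp2 and Mmp14. That of endothelial markers shared only the highest. The mean of 9 fibroblast and myofibroblast markers, of 10 on the array, ran from 7.24 to 8.60 with aliskiren and from 6.96 to 9.87 with losartan, and that of 9 macrophage and myeloid markers, of 10, from 7.33 to 8.93 with aliskiren and from 6.58 to 9.55 with losartan. Both were highest in losartan mouse 3, followed by aliskiren mouse 1, and lowest in losartan mouse 4. The macrophage mean includes Cd68, at 7.92 in losartan mouse 3, 7.05 in aliskiren mouse 1 and 4.38 to 6.38 in the others. Cd68 would not have passed the level filter without those 2 mice, so this mean rests in part on a marker admitted by its high mice. The mean of 8 endothelial markers ran from 7.51 to 7.85 with aliskiren and from 7.33 to 8.20 with losartan. It was highest in losartan mouse 3 and lowest in losartan mouse 4. Aliskiren mouse 1, at 7.85, was the highest of its group but lay below losartan mice 1 and 2, at 8.01 and 7.95. Losartan mouse 5, the lowest for Timp1, was at 7.82. The mean of 2 podocyte markers, of 4 on the array, ran from 7.60 to 8.31 with aliskiren and from 7.26 to 8.26 with losartan. It was highest in aliskiren mouse 1, next in losartan mouse 3 and lowest in losartan mouse 4. Of the podocyte markers below the level filter, Wt1 was also highest in aliskiren mouse 1, at 5.22, and next in losartan mouse 3, at 4.94. Nphs1 did not follow, with the lowest value in losartan mouse 3 at 4.94, the highest in losartan mouse 5 at 5.88, and 5.62 in aliskiren mouse 1. The fat marker mean of aliskiren mouse 3, 9.76, was the second highest, and that of aliskiren mouse 1, 6.40, the lowest. The part of any of these cells, fat included, in the values of Timp1, Timp2, Mmp2 and Mmp14 was not tested. The mean of 10 proximal tubule markers ran from 12.52 to 12.72 with aliskiren and from 12.12 to 12.87 with losartan, lowest in losartan mouse 3. The mean of 6 loop and distal tubule markers ran from 11.25 to 11.64 with aliskiren and from 11.19 to 11.86 with losartan, and was also lowest in losartan mouse 3. The part of either in the meprin values was not tested.

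**Figure D5:**
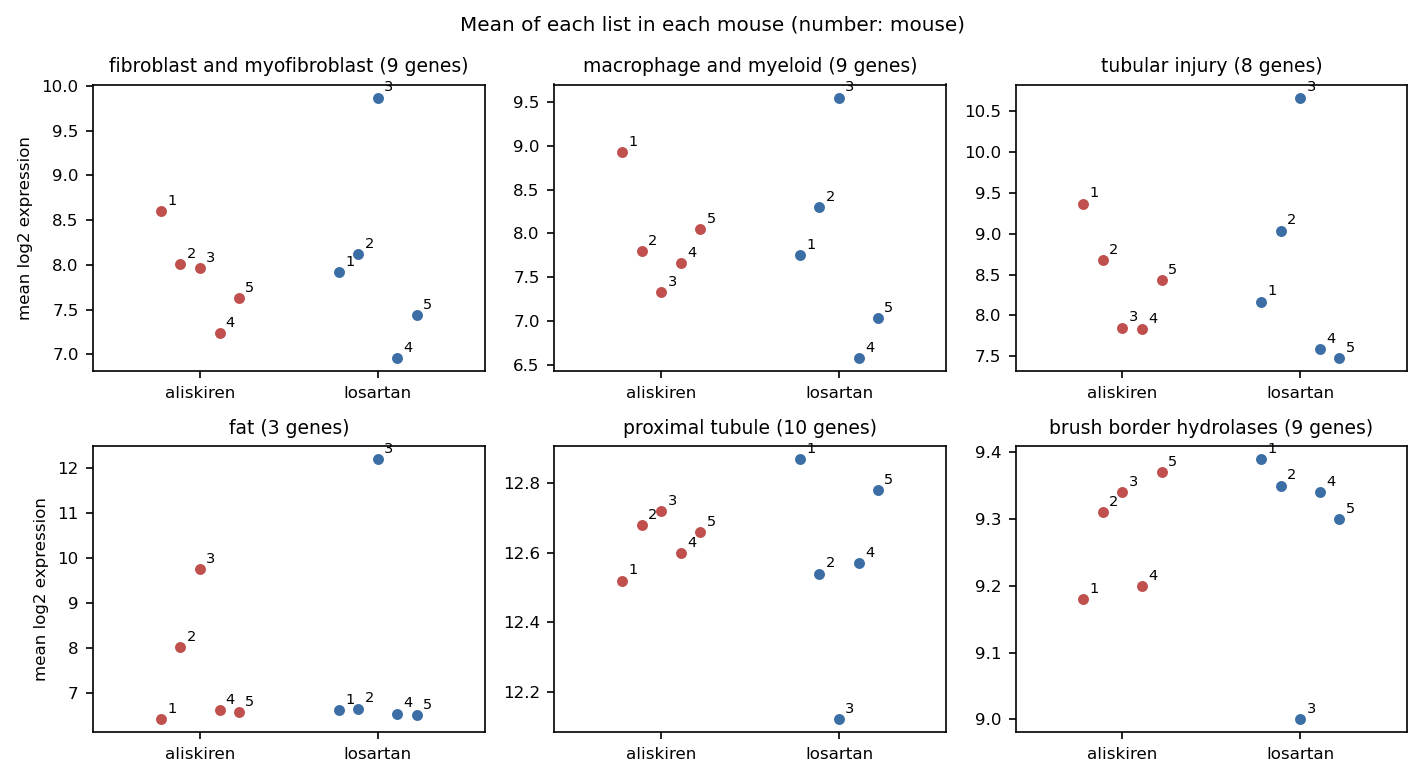
Mean log2 expression of 5 marker lists and of the brush border hydrolases in each mouse (points, labelled by number), aliskiren on the left and losartan on the right. Losartan mouse 3 is highest for the fibroblast, macrophage, injury and fat markers and lowest for the proximal tubule markers and hydrolases, while aliskiren mouse 1 is second for the first 3 lists and lowest for fat.

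The genes most like each member over the 10 mice are given as a description over 11477 other genes, with the members themselves left out. Mmp2, Mmp14, Timp1 and Timp2 were correlated with each other at r of 0.92 to 0.97, so their differing closest genes do not set them apart. Mmp2 was closest to Pamr1, Itpripl2 and the collagen gene Col1a2, each at r = 0.99, and Timp2 to the complement genes C1s1 and Serping1, both at 0.99. Timp1 was closest to the syndecan gene Sdc1, Kctd10 and Rgs10, and Mmp14 to the tropomyosin gene Tpm4, Birc3 and Basp1, all at 0.99. None of these values was computed without aliskiren mouse 1, and each was at least 0.97 without losartan mouse 3. Mep1b was closest to Acadm, which encodes the medium-chain acyl-CoA dehydrogenase, and to the ketone body enzyme gene Bdh1, both at 0.99, and these stayed at 0.96 and 0.97 without that mouse. Mep1a was closest to Pzp, Kap and Rdh5 at 0.98, and these dropped to 0.61, 0.54 and 0.60 without it.

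Promoter windows were available for 7 of the 10 genes, from RefSeq on GRCm38.p6, and span 250 bases before to 50 after the annotated start. The windows of Timp1, Timp2 and Mmp14, whose values were correlated over the 10 mice, are shown with that of Mep1a. Both strands were searched for 5 short motifs, and capitals mark the matches, none of which overlaps another in these windows. The AP-1 motif was searched as TGANTCA, where N is any base. The core of ETS family sites was searched as AGGAAG. The GC box bound by Sp1 was searched as GGGCGG. The TATA box was searched as TATAAA and a core of HNF1 sites, a factor of proximal tubule genes, as the letters GTTAAT.
Timp1, chrX:20869916-20870215, plus strand: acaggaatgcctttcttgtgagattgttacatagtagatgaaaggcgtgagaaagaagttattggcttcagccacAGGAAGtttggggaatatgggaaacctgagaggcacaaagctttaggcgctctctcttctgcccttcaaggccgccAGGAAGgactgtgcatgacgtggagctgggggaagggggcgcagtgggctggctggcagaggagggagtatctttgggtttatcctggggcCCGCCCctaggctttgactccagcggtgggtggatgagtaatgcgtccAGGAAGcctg
Timp2, chr11:118355362-118355661, minus strand: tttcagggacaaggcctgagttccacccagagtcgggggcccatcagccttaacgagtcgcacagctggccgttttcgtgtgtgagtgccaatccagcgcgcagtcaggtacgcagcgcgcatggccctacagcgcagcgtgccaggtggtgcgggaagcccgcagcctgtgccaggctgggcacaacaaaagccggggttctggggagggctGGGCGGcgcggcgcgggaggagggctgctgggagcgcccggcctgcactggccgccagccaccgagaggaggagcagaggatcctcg
Mmp14, chr14:54431348-54431647, plus strand: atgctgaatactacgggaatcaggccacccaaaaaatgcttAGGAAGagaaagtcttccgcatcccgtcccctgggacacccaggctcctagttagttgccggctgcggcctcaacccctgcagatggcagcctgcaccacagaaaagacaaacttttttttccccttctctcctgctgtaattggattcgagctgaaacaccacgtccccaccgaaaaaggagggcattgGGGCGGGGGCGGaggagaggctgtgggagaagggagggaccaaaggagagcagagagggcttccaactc
Mep1a, chr17:43502724-43503023, minus strand: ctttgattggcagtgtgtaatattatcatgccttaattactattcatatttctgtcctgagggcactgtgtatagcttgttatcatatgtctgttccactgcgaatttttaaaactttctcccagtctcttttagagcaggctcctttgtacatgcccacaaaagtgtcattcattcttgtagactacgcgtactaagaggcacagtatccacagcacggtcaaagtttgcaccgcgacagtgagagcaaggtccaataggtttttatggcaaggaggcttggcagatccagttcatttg
The windows of Timp1, Timp2 and Mmp14 each held a GC box, found in 35.7% of the 32851 promoters of the table, and those of Timp1 and Mmp14 also held AGGAAG, found in 35.4%. The window of Timp3, whose relation with Timp1 did not pass, held these motifs too, with 2 GC boxes and 1 AGGAAG. The window of Mep1a held none of the 5 motifs. The AP-1 letters, in 7.81% of all promoters, and the TATA box, in 13.6%, were found together in the window of Mmp3 and in 1 of the 2 windows of Mmp7, with AP-1 in both as TGAGTCA, with first letters at positions -46 and -63 from the start site. The other Mmp7 window held neither. GTTAAT, in 7.1% of promoters, was in no member's window. These are matches of letters and not shown binding sites.

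Other genes of the pathway showed no difference past the threshold either. Over all tested genes the median difference was -0.01, and in each of the following lists 0 genes passed limma in either direction and 0 had an unadjusted p under 0.05. Of 19 genes listed as other metalloproteinases and Timp4, 14 were on the array, 4 were tested and all 4 were lower with aliskiren, at a median of -0.12, with Mmp17 at -0.15 (SE 0.09), Mmp24 at -0.10 (SE 0.11) and Mmp23 at -0.21 (SE 0.27). Mmp23 stood at 7.06 in losartan mouse 3 and differed by 0.03 without it, when 2 of the 4 were lower at a median of -0.06. Of 10 ADAM and ADAMTS genes, which shed surface proteins or cleave proteoglycans, 6 were lower and 4 higher at a median of -0.02, and 7 were lower at the same median without losartan mouse 3. Among them were Adamts1 at -0.42 (SE 0.27), or -0.23 without losartan mouse 3, the sheddase gene Adam10 at 0.12 (SE 0.08) and Adamts10 at -0.12 (SE 0.10).

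Among 11 activators, inhibitors and partners 5 were lower and 6 higher, at a median of 0.03, and 2 were lower at a median of 0.12 without losartan mouse 3. Furin, encoding the convertase that activates the Mmp14 product, differed by 0.16 (SE 0.08), the urokinase gene Plau by 0.30 (SE 0.20) and the thrombospondin gene Thbs1 by -0.27 (SE 0.23), or -0.08 without losartan mouse 3. Of 10 upstream cytokine and transcription factor genes 8 were lower, at a median of -0.10, and 2 were lower at a median of 0.11 without that mouse. The AP-1 genes Junb and Jun differed by 0.20 (SE 0.16) and -0.30 (SE 0.38), and by 0.34 and -0.14 without it, and the cytokine gene Il1b by 0.13 (SE 0.15), or 0.28 without it. Il1b stood close to the level filter, at means of 5.64 with aliskiren and 5.51 with losartan. It passed the filter only through losartan mouse 3, at 6.09, so its differences rest on a gene admitted by that mouse.

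Of 12 matrix substrates 8 were lower, at a median of -0.08, and 1 was lower at a median of 0.10 without losartan mouse 3. The perlecan gene Hspg2 differed by 0.08 (SE 0.09), or 0.00 without that mouse, the nidogen gene Nid1 by -0.26 (SE 0.34), or 0.03, and the type IV collagen gene Col4a2 by -0.15 (SE 0.20), or 0.04. The 9 brush border hydrolases split into 4 lower and 5 higher at a median of 0.01, beside differences of 0.22 for Mep1a and 0.80 for Mep1b. Of the 9, 6 were lower at a median of -0.04 without losartan mouse 3, beside 0.02 for Mep1a and 0.24 for Mep1b. The alkaline phosphatase gene Alpl differed by -0.30 (SE 0.15), the dipeptidase gene Dpep1 by -0.31 (SE 0.20) and Treh by 0.22 (SE 0.18), or 0.04 without losartan mouse 3.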

How the data were processed

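Renal cortex RNA of 10 mice was measured, 1 array per mouse, from cRNA labelled with biotin per the labels' protocols. The authors deposited log2 values of probe sets. The submitters' processing notes name RMA and version 1.1 of Affymetrix Expression Console. RMA brings the arrays to a common distribution, so an overall shift in RNA amount is not visible, and it narrows differences of dim probe sets. The genome build was not given in the sources used here. No detection calls were used, arrays have no depth, and their number, 5 per drug, limits the precision.

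The 64 control probe sets were dropped; 34945 probe sets with 1 gene symbol stood for 18193 genes, and 932 with several symbols and 9160 with none were not used. Symbols were updated through the gene identifiers of 34741 probe sets. The probe set of highest mean stood for a gene, and 11486 genes with a mean at or above 5.53 were tested with limma 3.58.1 in R 4.3.3 (lmFit, eBayes, drug as the only term, two-sided, Benjamini-Hochberg over all tested genes, threshold 0.05). Mmp3 was read from a fit without the level filter. Relations across mice used 100000 resamples with 10 mice and exact enumeration with fewer. The fit was checked on simulated data. Named genes were the members, Havcr1, the 3 tested genes of smallest p per pathway list, and the 3 most correlated genes per tested member, of which some are printed. Adipoq, Cidea, Fabp4, Retn, Cd68, Wt1, Nphs1, Anpep, Ace, Dpp4, Slc7a13 and Slc5a12 were singled out with their values known. Other settings tried were averaging a gene's probe sets, stricter or no filtering, rescaled arrays, other spread models, weights per array, a block on mouse number, and fits without some mice. Members and lists were chosen with earlier results of these data known. Some genes of the lists were not analysed here. Figures were drawn with matplotlib 3.10.9.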

Additional observations from a re-analysis of the deposited data

Results flagged for a closer look

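Within each drug group of 5 mice, single animals were compared with the others by Dixon's ratio, over 54 combinations of a gene or list mean and a drug, of which 9 stood out and about 1 in 20 would by chance. Among the members, Mmp7 was at 6.34 in aliskiren mouse 1, with the other aliskiren mice at 5.80 to 5.87. Timp3 was at 13.01 in aliskiren mouse 2, with the others at 13.18 to 13.24. Mep1a was at 11.90 in losartan mouse 3, with the others at 12.82 to 12.98. Mep1b in losartan mouse 3 did not stand out by this measure, since losartan mouse 5 was low as well.

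Among the list means, aliskiren mouse 1 was high for ADAM and ADAMTS proteases at 8.48, with the others at 8.0 to 8.13. It was high for activators, inhibitors and partners at 8.34, with the others at 7.65 to 7.82, and for podocyte markers at 8.31, with the others at 7.60 to 7.79. Aliskiren mouse 4 was high for loop and distal tubule markers at 11.64, with the others at 11.25 to 11.33. Losartan mouse 3 was low for brush border hydrolases at 9.0, with the others at 9.30 to 9.39, and high for fat markers at 12.21, with the others at 6.5 to 6.64. The fat mean includes Cidea, which passed the level filter only through its high mice, losartan mouse 3 among them.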

How the results depend on the processing

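With limma, 0 genes passed under every alternative fit and at an adjusted p of 0.10, and between 368 and 804 had an unadjusted p under 0.05, against 542 in the reported fit. With the mouse number as a replicate block 0 passed as well, and 450 had an unadjusted p under 0.05. After centring on each drug, same-numbered mice correlated over the tested genes at -0.23 to 0.42. Losartan mice 4 and 5 were closest to the aliskiren mice of their own number, and losartan mice 1, 2 and 3 were not. Such a check cannot settle whether the numbers pair the mice. The labels give no pairing, and the numbers were taken as names only. The number of members lower with aliskiren, 5, ran from 1 to 5 when 1 mouse was left out, the lowest without losartan mouse 3. A filter at the 75th percentile left 4 members (Timp2, Timp3, Mep1a and Mep1b), and that count was not made there. When 1 mouse was left out the differences ran from -0.48 to 0.25 for Mmp2, from -0.23 to 0.08 for Mmp14, from -0.55 to 0.46 for Timp1 and from -0.37 to 0.22 for Timp2, each turning without losartan mouse 3, and that of Timp2 also reaching 0.00 without aliskiren mouse 4. The Timp1 difference was 0.13 with array weights and 0.15 without losartan mouse 3 and aliskiren mouse 1. The differences of Mmp3, Mmp7, Mmp9, Timp3, Mep1a and Mep1b kept their sign under every alternative run, with that of Mmp3 between -0.36 and -0.11 when 1 mouse was left out.

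Of the correlations with Timp1, those without the 2 mice farthest from the median were 0.62 for Mmp2, 0.18 for Mmp3, -0.56 for Mmp7, 0.79 for Mmp14, 0.63 for Timp2, 0.34 for Timp3, 0.54 for Mep1a and 0.41 for Mep1b. In the same setting Mep1a with Mep1b was at 0.80 and Havcr1 with Mep1a at 0.04, and 8 mice are fewer to test. Spearman's rho was 0.58 for Timp1 with Mmp3, 0.18 with Timp3, 0.05 with Mep1a, and 0.01 for Havcr1 with Mep1a. When 1 mouse was left out, r with Timp1 ran from 0.61 to 0.85 for Mmp3, from -0.12 to 0.62 for Mmp9, from -0.64 to 0.50 for Timp3, from -0.83 to 0.35 for Mep1a and from -0.83 to 0.19 for Mep1b, and Havcr1 with Mep1a ran from -0.66 to 0.32. The cause of these changes was not tested. Probe sets near the level filter, as for Mmp7, Mmp9, Mmp14 and Timp1, limit how small a difference can be read.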

Other observations

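The genes most like the remaining members were as follows. Mmp9 was closest over the 10 mice to Gatd1 and Rcor1, both at r = 0.90, and to the transcription elongation gene Cdc73 at 0.89. Mmp7 was closest to Pprc1 at 0.88, a coactivator of the PGC-1 family, and to Mark1 and Washc4 at 0.87. Timp3 was closest to Nudt12 at 0.96 and to the translation factor gene Eif4a2 at 0.95, which was at 0.88 without losartan mouse 3. These correlations are over 10 mice and are picked as the highest among 11477 genes.

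Mep1b varied among the animals apart from losartan mouse 3 as well, over a range of 1.95 in log2 units, where Mep1a ranged over 0.25. Aliskiren mice 4 and 5 and losartan mouse 4 were the highest for Mep1b, at 11.21, 10.91 and 11.04, and losartan mouse 5 was at 9.26. Losartan mouse 5 also had the lowest Timp1, 4.78, and the lowest Havcr1, 5.41, of all 10 mice.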
